A study of Mus musculus with 8 samples.

Results

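Ly6Chi monocytes were sorted from mouse livers after an acetaminophen overdose, and 8 libraries of their polyadenylated RNA fall into a pair of animal sets by the numbers in their names. The higher-numbered set holds deficient animals 12 and 13 and control animals 10 and 11. The lower-numbered set holds deficient animals 5 and 6 and control animals 2 and 3. All 8 libraries of the series were used, 4 in each set, and the difference between the sets was tested in all 12178 genes that passed a filter on low counts, with genotype as a covariate. Deficient animals (LysMDCommd10) carry floxed Commd10 alleles and a Cre recombinase under the LysM promoter, which is active in monocytes, macrophages and neutrophils alike. Control animals (Commd10fl/fl) carry the floxed alleles without the Cre. All were male C57BL/6 mice, 8 weeks old, fasted for 12 h, given 300 mg/kg acetaminophen intraperitoneally and studied 24 h later. The labels do not say what parts the numbers into sets, and nothing in them distinguishes the sets in strain, age, dose or time. They also do not say that each library is a separate mouse, so p-values measure the spread between these libraries.

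Monocytes of the Ly6Chi kind leave the bone marrow through CCR2 and enter injured tissue, where they first secrete cytokines and chemokines and later turn into macrophages that clear debris and aid repair. In acetaminophen injury they gather around the necrotic centre of the liver lobule, and over the course of recovery their expression shifts from inflammatory towards restorative genes. Several programmes of such cells are read from well-known genes: interferon-stimulated genes, hypoxia genes under HIF-1, cytokine genes under NF-kB and AP-1, and the ARG1 programme of alternatively activated macrophages.

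Total counts per library ranged from 13327665 to 15759301, and 15012 to 15161 genes had at least 1 count. Cre transcripts were counted 37, 77, 122 and 94 times in deficient animals 12, 13, 5 and 6 and 0 times in the 4 controls, where 0 counts allow up to 0.200 to 0.225 CPM (counts scaled to equal library size). Commd10 had 17.03, 8.74, 27.2 and 29.8 CPM in the higher-numbered set, against 15.8, 15.4, 27.8 and 24.5 CPM in the lower-numbered set, with deficient before control animals in each list. Its set difference was not called (log2 fold change -0.06 ± 0.18, SE, adjusted p = 0.807). Among genes that define the labelled cell type, Ccr2, the receptor for exit from the marrow, had 1052 to 1725 CPM, Csf1r 2309 to 3295 CPM and Ly6c2 212 to 355 CPM. Lyz2, the lysozyme gene whose promoter drives the Cre, varied more, with 2847, 315, 8869 and 10952 CPM in the higher-numbered set, against 7333, 5597, 14669 and 16341 CPM in the lower-numbered set, and its set difference was not called (log2 fold change -1.34 ± 0.56, adjusted p = 0.0867). Deficient 12 and 13 were its lowest libraries. The neutrophil gene Retnlg stayed at or under 1.315 CPM and the Kupffer cell gene Clec4f at or under 2.58 CPM, but other markers of those cells were higher. Csf3r, which monocytes express too, had 251 to 404 CPM and the Kupffer cell gene Cd5l up to 11.5 CPM. Over the whole lists, neutrophil markers summed to 426 to 955 CPM and Kupffer cell markers to 132 to 497 CPM. Principal components of the tested genes put the sets on opposite sides of the first one, which carried 60.5% of the variance. Scores on it were -49.4, -42.0, -17.8 and -6.94 in the higher-numbered set and 23.6, 9.62, 40.7 and 42.3 in the lower-numbered set. Control 11 and deficient 6 lay nearest to the other set, and all other values below are listed in the same order, deficient 12, deficient 13, control 10 and control 11, then deficient 5, deficient 6, control 2 and control 3.

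**Figure D1:**
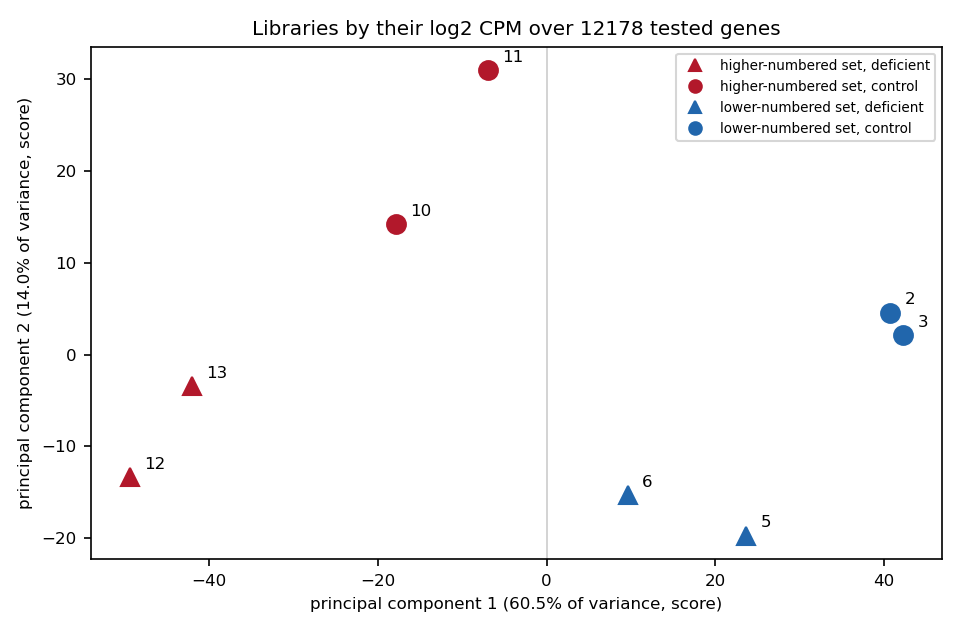
Principal component scores of the 8 libraries from log2 CPM of the tested genes, with colour for the set, shape for the genotype and the animal number beside each point. The first component (x axis, 60.5% of variance) separates the higher-numbered libraries (below 0) from the lower-numbered ones (above 0), and the second (y axis) holds 14.0%.

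Monocytes of the higher-numbered set carried more RNA of many inflammatory cytokine, chemokine, immediate early, hypoxia, repair and ribosome biogenesis genes, and less RNA of many interferon-stimulated, GTPase and MHC class I presentation genes. Of 12178 genes tested, 4496 (36.9%) were called at an adjusted p under 0.05, 2263 higher (18.6%) and 2233 lower (18.3%) in the higher-numbered set. Large differences lay mostly on the higher side: 505 genes (4.15%) rose and 232 genes (1.91%) fell at least 2-fold, 156 rose and 3 fell at least 4-fold, and 43 rose and 0 fell at least 8-fold. CPM values of the 4 libraries of one set did not overlap those of the other for 1409 genes on the higher side (11.6%) and 1556 on the lower side (12.8%). Over all tested genes the median log2 fold change was -0.0078 and the median absolute one 0.23. The called share grew with expression: of 5 equal bins of genes by mean log2 CPM, the highest held 26.6% that rose and 23.7% that fell, and the lowest 12.7% and 9.07%. Without the genotype term 1417 genes rose and 1291 fell, the only change of model or tool on all 8 libraries that moved these counts by more than 1.5 times. Fewer cells of a type and less RNA per cell cannot be told apart in such bulk libraries.

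The 10 largest increases among well-expressed genes were led by Arg1, the arginase of alternatively activated macrophages (ENSMUSG00000019987, chromosome 10, 24915221 to 24927484 on GRCm38). Arg1 had 10070.4, 6799, 2183 and 818 CPM in the higher-numbered set, against 93.3, 780.1, 35.5 and 27.6 CPM in the lower-numbered set (log2 fold change 4.90 ± 0.67, SE, edgeR adjusted p = 0.000764). Deficient 6 stood above the other libraries of its set and just under control 11, the lowest of the higher-numbered set. Slc7a2, a transporter of arginine into the cell, had 466, 263, 167 and 64.2 CPM in the higher-numbered set, against 7.65, 51.1, 7.94 and 7.52 CPM in the lower-numbered set (log2 fold change 3.75 ± 0.53, adjusted p = 0.000837). Its order was like that of Arg1: deficient 12 and 13 highest, control 11 lowest in the higher-numbered set, and deficient 6 the single raised library of the lower-numbered set. Ccl24, a chemokine of alternatively activated macrophages that draws eosinophils, followed the same order with 2755, 1199.8, 1038 and 365 CPM in the higher-numbered set, against 47.6, 281, 47.3 and 35.2 CPM in the lower-numbered set (log2 fold change 3.83 ± 0.57, adjusted p = 0.00111). Hbegf, an epidermal growth factor receptor ligand that hepatocytes respond to, had 62.7, 56.3, 30.6 and 17.9 CPM in the higher-numbered set, against 1.38, 9.05, 1.49 and 1.40 CPM in the lower-numbered set (log2 fold change 3.72 ± 0.41, adjusted p = 0.000284). Atp6v0d2, a macrophage and osteoclast subunit of the vacuolar proton pump, had 68.3, 32.4, 23.6 and 11.2 CPM in the higher-numbered set, against 0.659, 7.54, 0.882 and 0.266 CPM in the lower-numbered set (log2 fold change 3.99 ± 0.58, adjusted p = 0.00100). In both genes deficient 6 was again the highest of the lower-numbered set, and no value of one set reached the other. Socs2, an inhibitor of growth hormone and cytokine signalling, had 27.6, 20.1, 12.2 and 5.38 CPM in the higher-numbered set, against 1.25, 3.02, 0.746 and 0.931 CPM in the lower-numbered set (log2 fold change 3.45 ± 0.33, adjusted p = 0.000172). All 4 higher-numbered libraries lay above all 4 others. Deficient 6 narrowed several of these differences: without it the log2 fold changes were 5.94 for Arg1, 5.51 for Atp6v0d2, 4.57 for Ccl24, 4.55 for Slc7a2 and 4.61 for Hbegf.

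The remaining members of the 10, chosen under the same condition of no overlap, were inflammatory genes. Cxcl1 and Cxcl3, ligands of the neutrophil receptor CXCR2, had log2 fold changes of 4.88 ± 0.51 (adjusted p = 0.000234) and 4.82 ± 0.13 (adjusted p = 1.25e-07). Cxcl1 had 46.2, 118, 42.5 and 87.9 CPM in the higher-numbered set, against 1.45, 5.75, 2.58 and 0.599 CPM in the lower-numbered set. Cxcl3 had 230.0, 244, 20.0 and 19.0 CPM in the higher-numbered set, against 7.05, 7.98, 1.09 and 0.998 CPM in the lower-numbered set, with the lowest higher-numbered library above the highest of the other set. For Cxcl1 too the sets did not overlap, with deficient 13 and control 11 on top, and without deficient 6 its log2 fold change was 5.52. Il6, the cytokine that drives the acute-phase response of hepatocytes, had 25.8, 46.4, 9.61 and 9.69 CPM in the higher-numbered set, against 0.725, 1.94, 0.882 and 0.399 CPM in the lower-numbered set (log2 fold change 4.48 ± 0.33, adjusted p = 7.25e-05). Ptgs2, the inducible cyclooxygenase, had 515, 715, 233 and 475 CPM in the higher-numbered set, against 31.7, 54.3, 28.8 and 16.3 CPM in the lower-numbered set (log2 fold change 3.90 ± 0.29, adjusted p = 7.25e-05). Neither gene overlapped between the sets.

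**Figure D2:**
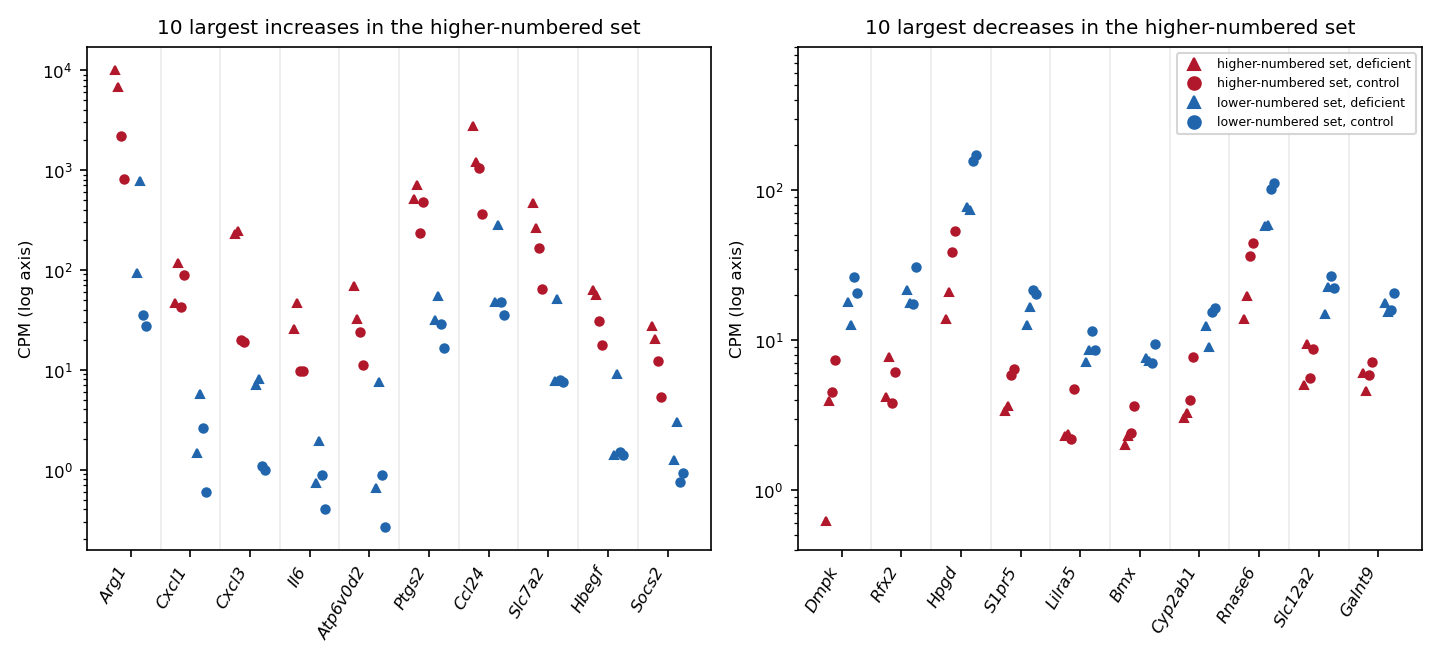
CPM of each library (log axes) for the 10 largest increases (left) and the 10 largest decreases (right) that met the naming rule, with colour for the set and shape for the genotype. No gene overlaps between the sets, which the naming rule required. Deficient 6 (780.1 CPM of Arg1) is the highest lower-numbered library for all 10 increases.

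The genes with the smallest p on the higher side joined feedback and hypoxia genes. Cxcl3 came first, then Socs3, the inhibitor of IL-6 receptor signalling, with 517, 544, 344 and 307 CPM in the higher-numbered set, against 159, 164, 97.3 and 104 CPM in the lower-numbered set (log2 fold change 1.71 ± 0.06, adjusted p = 1e-06). Hilpda, a hypoxia-induced protein of lipid droplets, had 168, 160.4, 32.0 and 35.6 CPM in the higher-numbered set, against 15.5, 21.6, 6.24 and 6.32 CPM in the lower-numbered set (log2 fold change 2.85 ± 0.16, adjusted p = 3.05e-05). Zc3h12a, the RNase Regnase-1 that degrades cytokine mRNAs, had 229, 229.7, 183 and 169 CPM in the higher-numbered set, against 74.3, 97.9, 63.3 and 65.8 CPM in the lower-numbered set (log2 fold change 1.43 ± 0.08, adjusted p = 4.25e-05). The sets did not overlap for Socs3 and Zc3h12a, or for Hilpda, whose higher-numbered controls lay nearest to deficient 6. Nek6, a kinase of mitosis, closed the 5 with a log2 fold change of 1.39 ± 0.08 (adjusted p = 5.36e-05).

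Among the 41 pathway lists, cytokines and chemokines had the largest median differences. These lists and the sets were chosen with earlier results of these data known, so list counts here and below are description only. Of 15 tested cytokines 10 rose, 4 fell and 1 was not called, with a median log2 fold change of 1.79. Lif and Osm, cytokines of the IL-6 family, rose with Il6. Lif had 68.0, 94.4, 26.6 and 44.9 CPM in the higher-numbered set, against 6.06, 9.63, 5.77 and 3.79 CPM in the lower-numbered set (log2 fold change 3.17 ± 0.24, adjusted p = 7.25e-05). Osm had 827, 952, 519.9 and 537 CPM in the higher-numbered set, against 66.2, 199, 69.6 and 51.0 CPM in the lower-numbered set (log2 fold change 2.94 ± 0.29, adjusted p = 0.000198), with deficient 6 again highest in its set. Il1b, the interleukin-1 that the inflammasome matures, named like Ccl2, Fos, Vegfa, Retnla and Cx3cr1 below after its values were seen, had 1072, 1817, 892 and 1799.5 CPM in the higher-numbered set, against 258, 253, 339 and 260.1 CPM in the lower-numbered set (log2 fold change 2.33 ± 0.24, adjusted p = 0.000214). Its lowest higher-numbered value was well above the highest of the other set. Il1a, Tnf, Csf1, the growth factor of macrophages, and the anti-inflammatory Il10 rose too, with log2 fold changes of 3.33, 1.94, 2.23 and 1.79. Il27, its partner chain gene Ebi3 and Tnfsf13b, which encodes the B cell factor BAFF, fell with log2 fold changes of -0.99, -0.96 and -1.33. The fourth that fell was Il18, with 10.6 ± 4.70 CPM in the higher-numbered set and 20.4 ± 5.10 CPM in the lower-numbered set (SD, n = 4 each).

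Among 20 tested chemokines 12 rose, 0 fell and 8 were not called (median log2 fold change 1.36). Cxcl2, the third CXCR2 ligand, had 1819, 2339.6, 802 and 1148 CPM in the higher-numbered set, against 169, 311, 154 and 87.7 CPM in the lower-numbered set (log2 fold change 3.07 ± 0.24, adjusted p = 8.5e-05). Ppbp, a chemokine that platelets store, had 49.2, 55.5, 5.48 and 5.10 CPM in the higher-numbered set, against 6.79, 2.95, 1.63 and 0.732 CPM in the lower-numbered set (log2 fold change 3.07 ± 0.31, adjusted p = 0.000198). The sets did not overlap for Cxcl2, and for Ppbp deficient 5 lay above both higher-numbered controls. Ligands of CCR2 rose too: Ccl2 had 1861, 1584, 810.0 and 503 CPM in the higher-numbered set, against 219.8, 402, 186 and 147 CPM in the lower-numbered set (log2 fold change 2.23 ± 0.22, adjusted p = 0.000200). Ccl7 and Ccl12 had log2 fold changes of 3.00 and 2.07. Ligands of CXCR3, which interferon induces, were not called: Cxcl10 had a log2 fold change of -0.12, Cxcl11 -0.35 and Cxcl9 -0.89.

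Immediate early genes, which cells transcribe within minutes of a stimulus, were higher in the higher-numbered set with few exceptions. Of 27 tested, 22 rose, 2 fell and 3 were not called (median log2 fold change 1.19). Junb and Fos encode subunits of the factor AP-1. Junb had 2722, 2831, 2662 and 3046 CPM in the higher-numbered set, against 948, 1312, 1038 and 947 CPM in the lower-numbered set (log2 fold change 1.41 ± 0.11, adjusted p = 8.5e-05). Fos had 2419.8, 2802, 3226 and 3866 CPM in the higher-numbered set, against 1247, 1753, 1534 and 1331 CPM in the lower-numbered set (log2 fold change 1.05 ± 0.15, adjusted p = 0.000786). Each kept the sets apart, with control 11 on top. Ier3 had 633, 596, 406 and 373 CPM in the higher-numbered set, against 108, 173, 84.5 and 60.3 CPM in the lower-numbered set (log2 fold change 2.28 ± 0.16, adjusted p = 5.65e-05). Maff, a small MAF protein, had 55.7, 54.5, 31.9 and 34.7 CPM in the higher-numbered set, against 20.3, 15.7, 8.00 and 11.2 CPM in the lower-numbered set (log2 fold change 1.70 ± 0.12, adjusted p = 5.65e-05). Both were highest in the deficient libraries of the higher-numbered set and did not overlap. Egr1 and Egr2, zinc finger factors that serum and growth factors induce, rose with log2 fold changes of 1.91 and 2.55. The exceptions that fell were Klf2 and Nr4a3, with log2 fold changes of -0.76 and -1.26.

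Genes of NF-kB signalling changed in both directions. Of 23 tested, 8 rose, 6 fell and 9 were not called (median log2 fold change -0.05). Feedback genes that rose were Nfkbia, which encodes the inhibitor IkB-alpha, at a log2 fold change of 1.69 ± 0.13 (adjusted p = 7.92e-05), and Tnfaip3, the A20 ubiquitin editor, Nfkbiz and Nfkbid, with log2 fold changes of 2.45, 1.70 and 1.56. Among subunits of the factor itself, Rela and Relb fell (log2 fold changes -0.25 and -0.41), and Nfkb1, Nfkb2 and Rel were not called (log2 fold changes 0.02, -0.36 and -0.01). The number that fell was 1 without deficient 12, 2 without deficient 13 and 3 without control 10 or control 3, and 0 in control animals alone.

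Most tested genes of the response to low oxygen rose, and so did most of the glycolysis list. Of 26 tested hypoxia genes 18 rose, 1 fell and 7 were not called (median log2 fold change 0.77). Vegfa, the angiogenic growth factor, had 259.8, 262, 40.5 and 98.6 CPM in the higher-numbered set, against 38.0, 19.5, 14.9 and 13.6 CPM in the lower-numbered set (log2 fold change 2.77 ± 0.32, adjusted p = 0.000342). Bhlhe40, a transcription factor that hypoxia and cytokines induce, had 585, 479, 279 and 255 CPM in the higher-numbered set, against 177, 220.1, 111 and 119.8 CPM in the lower-numbered set (log2 fold change 1.32 ± 0.10, adjusted p = 7.25e-05). Ak4, a mitochondrial adenylate kinase, had 23.9, 13.8, 2.704 and 1.87 CPM in the higher-numbered set, against 3.03, 2.59, 0.475 and 0.665 CPM in the lower-numbered set (log2 fold change 2.55 ± 0.26, adjusted p = 0.000234). Sets did not overlap for Vegfa and Bhlhe40, but for Ak4 deficient 5 lay above both higher-numbered controls. Hif1a itself and Epas1, which encodes HIF-2alpha, rose with log2 fold changes of 0.54 and 0.97. The single member that fell was Ddit4, an inhibitor of mTORC1, which had 31.2, 34.1, 31.9 and 30.1 CPM in the higher-numbered set, against 47.0, 66.0, 64.2 and 68.9 CPM in the lower-numbered set (log2 fold change -0.95 ± 0.11, adjusted p = 0.000403). Without the genotype term 7 hypoxia members rose.

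Of 22 tested glycolysis genes 14 rose, 1 fell and 7 were not called (median log2 fold change 0.46). Ldha, lactate dehydrogenase, had 1515, 1347, 799 and 756 CPM in the higher-numbered set, against 814, 741, 538 and 577 CPM in the lower-numbered set (log2 fold change 0.68 ± 0.09, adjusted p = 0.000779). Tpi1, triosephosphate isomerase, had 899, 775, 384 and 342 CPM in the higher-numbered set, against 399.9, 367, 226 and 249 CPM in the lower-numbered set (log2 fold change 0.87 ± 0.11, adjusted p = 0.000577). In both genes deficient 5 lay above both higher-numbered controls, so the sets overlapped. Pgam1 had a log2 fold change of 0.75 ± 0.10 (adjusted p = 0.000686), and the neuronal-type enolase Eno2 one of 1.84. Pfkm, a muscle phosphofructokinase, was the member that fell (log2 fold change -0.71), and 4 members rose without the genotype term.

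Genes tied to tissue repair and alternative activation were among the most changed. Of 24 tested, 19 rose, 1 fell and 4 were not called (median log2 fold change 1.21). Spp1, the secreted matrix protein osteopontin, had 2287, 1503, 674 and 716 CPM in the higher-numbered set, against 355, 399, 295 and 192 CPM in the lower-numbered set (log2 fold change 1.92 ± 0.21, adjusted p = 0.000284). Retnla, a secreted protein of alternatively activated mouse macrophages, had 33.5, 27.3, 26.4 and 9.62 CPM in the higher-numbered set, against 0.198, 7.76, 0.475 and 0 CPM in the lower-numbered set (log2 fold change 3.74 ± 0.75, adjusted p = 0.00423). For both genes the sets did not overlap, and deficient 6 was the highest lower-numbered library. Mrc1, the mannose receptor, Gdf15, Igf1 and Tgm2 rose with log2 fold changes of 2.699, 2.19, 1.43 and 1.34, whereas Pdgfb fell (log2 fold change -0.98).

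Of 19 tested matrix proteases and inhibitors 11 rose, 0 fell and 8 were not called (median log2 fold change 0.59). Adam8, a membrane protease of activated leukocytes, had 1770.3, 1624, 929 and 609 CPM in the higher-numbered set, against 432, 476, 212 and 231 CPM in the lower-numbered set (log2 fold change 1.85 ± 0.12, adjusted p = 5.58e-05). Mmp12, macrophage elastase, had 104, 81.8, 33.2 and 25.8 CPM in the higher-numbered set, against 9.62, 17.5, 9.02 and 6.65 CPM in the lower-numbered set (log2 fold change 2.39 ± 0.23, adjusted p = 0.000185). Mmp19 had a log2 fold change of 1.13 ± 0.12 (adjusted p = 0.000234), and Timp1, an inhibitor of these enzymes, one of 2.84. Of 13 tested coagulation and fibrinolysis genes 6 rose, 1 fell and 6 were not called (median log2 fold change 0.44). F7, coagulation factor VII, had 131, 87.1, 66.9 and 59.4 CPM in the higher-numbered set, against 36.6, 41.4, 15.7 and 13.9 CPM in the lower-numbered set (log2 fold change 1.76 ± 0.16, adjusted p = 0.000159). Adam8, Mmp12 and F7 did not overlap between the sets. Plaur, the urokinase receptor, rose (log2 fold change 0.59 ± 0.06, adjusted p = 0.000266), and F5, which encodes factor V, fell (log2 fold change -1.07).

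Ribosome biogenesis was the most uniform list. These proteins make and assemble ribosomal RNA in the nucleolus, and all 25 tested members rose (median log2 fold change 0.58). Utp4 had 66.7, 67.4, 59.7 and 50.2 CPM in the higher-numbered set, against 42.6, 43.3, 35.8 and 37.4 CPM in the lower-numbered set (log2 fold change 0.61 ± 0.06, adjusted p = 0.000248). Heatr1 had 213, 209, 177 and 145 CPM in the higher-numbered set, against 144, 150.1, 111 and 118 CPM in the lower-numbered set (log2 fold change 0.51 ± 0.07, adjusted p = 0.000671). Utp20 had 78.8, 77.5, 76.1 and 55.5 CPM in the higher-numbered set, against 46.5, 52.4, 39.1 and 40.1 CPM in the lower-numbered set (log2 fold change 0.70 ± 0.09, adjusted p = 0.000685). Differences were under 2-fold, and for Heatr1 deficient 6 lay above control 11. At least 24 members rose in each fit without 1 library, and 22 without the genotype term. Ribosomal proteins themselves differed less: of 35 tested, 8 rose, 0 fell and 27 were not called (median log2 fold change 0.02), a share near the 18.6% of all genes that rose. That number was 5 without deficient 12, control 10, deficient 5, deficient 6 or control 3. Rps27a had a log2 fold change of 0.59 ± 0.09 (adjusted p = 0.00126), Rpl10a one of 0.53 ± 0.09 (adjusted p = 0.00182) and Rpl13 one of 0.39 ± 0.06 (adjusted p = 0.00185). Reads of such genes can be shared with their pseudogenes, so these values are uncertain.

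Lists of energy, stress and division were nearer to the background of all tested genes, of which 18.6% rose and 18.3% fell. Of 30 tested nuclear genes of the respiratory chain 4 rose, 0 fell and 26 were not called (median log2 fold change 0.10), with called increases of Atp5b, a subunit of ATP synthase (log2 fold change 0.30 ± 0.07, adjusted p = 0.00845), Cyc1 (log2 fold change 0.25 ± 0.06, adjusted p = 0.0115) and Ndufa9 (log2 fold change 0.18 ± 0.05, adjusted p = 0.0312). The number that rose was 2 without deficient 12, deficient 13, control 10, deficient 5, control 2 or control 3. Ndufa9 was not called without deficient 12, deficient 13, control 10, control 11, deficient 5, control 2 or control 3 (log2 fold change 0.15 to 0.21 over the fits without 1 library). Of 29 cell cycle genes 2 rose, 2 fell and 25 were not called. The number of these that rose was 1 without deficient 12 or control 3, and the number that fell 0 without deficient 12 or control 2 and 1 without deficient 13, control 10, control 11, deficient 6 or control 3. Pcna, the sliding clamp of replication, rose (log2 fold change 0.29 ± 0.06, adjusted p = 0.00459), Cenpa rose (log2 fold change 0.58 ± 0.16, adjusted p = 0.0187), and E2f1 fell (log2 fold change -0.30 ± 0.08, adjusted p = 0.0202). Cenpa was not called without deficient 12, control 2 or control 3 (log2 fold change 0.47 to 0.78 over the fits without 1 library). Nor was E2f1 called without deficient 12, control 10 or control 2 (log2 fold change -0.36 to -0.24 over the fits without 1 library). Of 24 genes of the unfolded protein and integrated stress responses 6 rose, 1 fell and 17 were not called. The number that rose was 11 without deficient 6, and the number that fell 3 without deficient 6. Ppp1r15a, which restarts translation after stress, rose (log2 fold change 1.29 ± 0.19, adjusted p = 0.00107), as did Atf4 (log2 fold change 0.35 ± 0.06, adjusted p = 0.00136). Herpud1, a factor of protein degradation at the endoplasmic reticulum, fell and had 76.4, 69.9, 56.3 and 65.2 CPM in the higher-numbered set, against 143, 124, 143 and 153 CPM in the lower-numbered set (log2 fold change -1.07 ± 0.10, adjusted p = 0.000160). Of 15 cytosolic heat shock genes 1 rose, 4 fell and 10 were not called. The chaperone genes Dnajb1 (log2 fold change -0.68 ± 0.10, adjusted p = 0.00106) and Hspa8 (log2 fold change -0.53 ± 0.10, adjusted p = 0.00299) fell, and Hsf1 rose (log2 fold change 0.24 ± 0.07, adjusted p = 0.0229). The number of them that fell was 2 without deficient 13, control 10, control 11, deficient 6, control 2 or control 3, and the number that rose 0 without deficient 12, deficient 13, deficient 5 or control 2, 2 without control 11 and 3 without deficient 6. Hsf1 was not called without deficient 12, deficient 13, deficient 5, deficient 6 or control 2 (log2 fold change 0.19 to 0.28 over the fits without 1 library).

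Genes of lipid and cholesterol handling and of lysosomes changed in part, beside 18.6% of all tested genes that rose and 18.3% that fell. Cholesterol synthesis genes were called less often than that, and efflux genes about as often. The share of autophagy genes that rose was also near that of all genes. Of 17 lipid droplet and fatty acid genes 8 rose, 1 fell and 8 were not called (median log2 fold change 0.21). Cd36, a fatty acid and scavenger receptor, had 1103, 917, 429 and 360.3 CPM in the higher-numbered set, against 224, 268, 136 and 96.2 CPM in the lower-numbered set (log2 fold change 1.90 ± 0.13, adjusted p = 5.65e-05). Fabp4, a fatty acid carrier, had 74.6, 67.0, 48.6 and 60.9 CPM in the higher-numbered set, against 15.8, 22.0, 9.63 and 7.52 CPM in the lower-numbered set (log2 fold change 2.26 ± 0.18, adjusted p = 8.32e-05). Neither gene overlapped between the sets. Of 20 cholesterol synthesis and uptake genes 2 rose, 1 fell and 17 were not called. Sqle (log2 fold change 0.55 ± 0.17, adjusted p = 0.0305) and Insig1 (log2 fold change 0.26 ± 0.08, adjusted p = 0.0307) rose, and Dhcr7 fell (log2 fold change -0.37 ± 0.13, adjusted p = 0.0433). Sqle was not called without deficient 12, control 10, deficient 5, deficient 6 or control 3 (log2 fold change 0.35 to 0.64 over the fits without 1 library). For Insig1 the call was lost without deficient 13, control 11, deficient 5, control 2 or control 3 (log2 fold change 0.21 to 0.31 over the fits without 1 library). For Dhcr7 it was lost without deficient 12, deficient 13, control 10, deficient 5, deficient 6 or control 2 (log2 fold change -0.46 to -0.26 over the fits without 1 library). Of 14 genes of cholesterol efflux 3 rose, 3 fell and 8 were not called. Npc1, the lysosomal cholesterol exporter, rose (log2 fold change 0.66 ± 0.08, adjusted p = 0.000450), Abcg1 rose (log2 fold change 0.27 ± 0.08, adjusted p = 0.0246) and Pltp fell (log2 fold change -0.90 ± 0.19, adjusted p = 0.00532). The number of efflux genes that rose was 1 without deficient 12, control 10 or deficient 5. The number that fell was 1 without deficient 12, control 10, deficient 5 or control 2 and 6 without control 11. Abcg1 was not called without deficient 12, control 10, deficient 5 or control 3 (log2 fold change 0.21 to 0.33 over the fits without 1 library). Of 33 lysosome and proton pump genes 13 rose, 4 fell and 16 were not called (median log2 fold change 0.04). The number of these that fell was 2 without deficient 12, deficient 5 or control 2. Mitf, a transcription factor of lysosomal genes, had 135, 117, 102 and 78.2 CPM in the higher-numbered set, against 58.6, 67.9, 50.1 and 47.0 CPM in the lower-numbered set (log2 fold change 0.94 ± 0.09, adjusted p = 0.000198). The pump subunit gene Atp6v1a had a log2 fold change of 0.67 ± 0.07 (adjusted p = 0.000253). Of 24 autophagy genes 4 rose, 7 fell and 13 were not called. Pink1, the sensor kinase of damaged mitochondria, fell (log2 fold change -0.68 ± 0.08, adjusted p = 0.000407), Map1lc3b fell (log2 fold change -0.39 ± 0.06, adjusted p = 0.000888), and Gabarapl1 rose (log2 fold change 0.52 ± 0.08, adjusted p = 0.00117).

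Metal, redox and hormone response genes moved in part. Of 7 tested metallothionein and zinc genes 4 rose, 0 fell and 3 were not called. Mt1, a metallothionein that binds zinc, had 229.7, 189.9, 152 and 122 CPM in the higher-numbered set, against 83.6, 94.3, 72.8 and 64.6 CPM in the lower-numbered set (log2 fold change 1.12 ± 0.10, adjusted p = 0.000151). Slc39a14, a zinc and iron importer, had 87.8, 82.2, 45.0 and 39.98 CPM in the higher-numbered set, against 33.6, 34.0, 21.2 and 23.1 CPM in the lower-numbered set (log2 fold change 1.14 ± 0.09, adjusted p = 8.32e-05). Mt2 rose (log2 fold change 2.75 ± 0.34, adjusted p = 0.000465) from low counts, with 0.271 to 6.09 CPM over the 8 libraries. Of 25 NRF2 and glutathione genes 11 rose, 6 fell and 8 were not called (median log2 fold change 0.08). Srxn1 (log2 fold change 0.63 ± 0.08, adjusted p = 0.000485), Abcc1 (log2 fold change 0.50 ± 0.07, adjusted p = 0.000861) and the glutathione synthesis gene Gclc (log2 fold change 0.44 ± 0.07, adjusted p = 0.00131) rose, while Nfe2l2, the gene of NRF2 itself, fell (log2 fold change -0.67). The number that rose was 6 without deficient 6 and 7 without deficient 12 or control 3, and it was 2 without the genotype term. Of 18 heme and iron genes 8 rose, 1 fell and 9 were not called. Tfrc, the transferrin receptor, rose (log2 fold change 0.52 ± 0.10, adjusted p = 0.00403). Hmox1, heme oxygenase, had 6401, 4471, 1609 and 1517 CPM in the higher-numbered set, against 2235, 1723, 1087 and 1492 CPM in the lower-numbered set (log2 fold change 0.87 ± 0.24, adjusted p = 0.0204), and Ftl1, ferritin light chain, had a log2 fold change of 0.32 ± 0.09 (adjusted p = 0.0220). Values of Hmox1 overlapped, and its call was lost without deficient 5 or deficient 6 (log2 fold change 0.65 to 1.07 over the fits without 1 library). Ftl1 was not called without deficient 12, deficient 6 or control 3 (log2 fold change 0.25 to 0.37 over the fits without 1 library). The number of heme and iron genes that rose was 3 without deficient 12 or control 2, 4 without deficient 13, deficient 5, deficient 6 or control 3 and 5 without control 10, and it was 1 without the genotype term and 2 in control animals alone. The number that fell was 0 without deficient 12, control 10, deficient 5 or control 2.

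Of 15 glucocorticoid response genes 7 rose, 4 fell and 4 were not called (median log2 fold change 0.88). Sgk1, a kinase that corticosteroids induce, had 550.5, 508, 276 and 348 CPM in the higher-numbered set, against 199.8, 258, 159 and 148 CPM in the lower-numbered set (log2 fold change 1.12 ± 0.10, adjusted p = 0.000160). Tsc22d3, the glucocorticoid-induced leucine zipper, had 97.5, 101, 115 and 88.9 CPM in the higher-numbered set, against 144, 169, 192 and 199 CPM in the lower-numbered set (log2 fold change -0.80 ± 0.10, adjusted p = 0.000439). Both kept the sets apart, in opposite directions. Of 16 circadian clock genes 3 rose, 2 fell and 11 were not called, near or under the 18.6% and 18.3% of all tested genes. Nfil3 had 385, 396, 289.9 and 273 CPM in the higher-numbered set, against 73.6, 160.4, 82.6 and 73.1 CPM in the lower-numbered set (log2 fold change 1.80 ± 0.19, adjusted p = 0.000264), with deficient 6 again highest in its set. Per1 also rose (log2 fold change 1.01 ± 0.19, adjusted p = 0.00301), while core clock genes Arntl and Clock were not called (log2 fold changes -0.18 and 0.21). The number of clock genes that fell was 4 without control 11.

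The 10 largest decreases, chosen by the same rule of expression, name and no overlap between the sets, were smaller than the increases. Of the 3 called decreases of at least 4-fold over all tested genes, Dmpk alone met that rule. Dmpk, the kinase gene of myotonic dystrophy, had 0.623, 3.94, 4.51 and 7.32 CPM in the higher-numbered set, against 17.9, 12.6, 26.5 and 20.8 CPM in the lower-numbered set (log2 fold change -2.30 ± 0.35, adjusted p = 0.00119). Hpgd, which breaks down prostaglandins, had 13.8, 20.9, 38.6 and 53.3 CPM in the higher-numbered set, against 77.1, 73.1, 157 and 172 CPM in the lower-numbered set (log2 fold change -1.97 ± 0.14, adjusted p = 5.65e-05). S1pr5, a sphingosine-1-phosphate receptor that patrolling monocytes use to leave the marrow, had 3.39, 3.61, 5.86 and 6.39 CPM in the higher-numbered set, against 12.7, 16.5, 21.6 and 20.4 CPM in the lower-numbered set (log2 fold change -1.90 ± 0.12, adjusted p = 5.58e-05). All 4 lower-numbered libraries lay above all 4 others for these 3 genes. Rnase6, an antimicrobial ribonuclease, had 13.8, 19.6, 36.3 and 44.5 CPM in the higher-numbered set, against 57.8, 58.6, 102 and 112 CPM in the lower-numbered set (log2 fold change -1.59 ± 0.12, adjusted p = 8.32e-05). The transcription factor Rfx2 had 4.15, 7.75, 3.83 and 6.17 CPM in the higher-numbered set, against 21.4, 17.7, 17.4 and 30.9 CPM in the lower-numbered set (log2 fold change -1.98 ± 0.26, adjusted p = 0.000588). Slc12a2, a sodium, potassium and chloride cotransporter, had 4.98, 9.46, 5.56 and 8.69 CPM in the higher-numbered set, against 14.8, 22.6, 26.6 and 22.4 CPM in the lower-numbered set (log2 fold change -1.57 ± 0.23, adjusted p = 0.000935). None of these overlapped between the sets, nor did Lilra5, the kinase gene Bmx, Cyp2ab1 and Galnt9, which fell with log2 fold changes of -1.64 ± 0.22, -1.60 ± 0.18, -1.59 ± 0.20 and -1.56 ± 0.14. The smallest p on the lower side belonged to Dusp6, a phosphatase of ERK, which had 160.2, 173, 203 and 207 CPM in the higher-numbered set, against 389.5, 337, 468 and 476 CPM in the lower-numbered set (log2 fold change -1.16 ± 0.06, adjusted p = 3.05e-05). Samsn1 (log2 fold change -0.84 ± 0.06, adjusted p = 5.58e-05), the chemoattractant cytokine gene Il16 (log2 fold change -1.18 ± 0.08, adjusted p = 5.58e-05) and AC163018.1 (log2 fold change -1.25 ± 0.08, adjusted p = 5.58e-05) followed. AC163018.1 is annotated as antisense, and whether counting used strand is not given in the sources used here, so its reads cannot be told from those of genes on the other strand.

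By the share of members called, interferon-stimulated genes made up the most uniform decrease of the 41 lists. Of 36 tested genes of the type I interferon response, 0 rose, 33 fell and 3 were not called (median log2 fold change -0.63). CPM of the sets did not overlap for 4 of these 36 genes, all on the lower side, beside 12.8% of all tested genes on that side. Oas3, an antiviral oligoadenylate synthetase, had 82.9, 79.5, 192 and 200.2 CPM in the higher-numbered set, against 168, 192, 353 and 288 CPM in the lower-numbered set (log2 fold change -0.92 ± 0.10, adjusted p = 0.000318). Ifi27l2a had 172, 158, 273 and 307 CPM in the higher-numbered set, against 285, 272, 497 and 417 CPM in the lower-numbered set (log2 fold change -0.71 ± 0.07, adjusted p = 0.000238). Isg20, an exonuclease, had 8.86, 8.28, 13.7 and 15.1 CPM in the higher-numbered set, against 16.9, 16.02, 21.1 and 22.2 CPM in the lower-numbered set (log2 fold change -0.75 ± 0.10, adjusted p = 0.000588). For Oas3 and Ifi27l2a the higher-numbered controls reached values of lower-numbered deficient libraries, and of these 3 genes only Isg20 kept the sets fully apart. Stat2 and Irf9, which encode transcription factors of the interferon response, fell with log2 fold changes of -0.44 and -0.38. Irf7 and Ifit3 fell as well (log2 fold changes -0.57 and -1.24), and Ifit3 can share reads with its near copy Ifit3b, so its value is uncertain. Rsad2, Ifi207 and Ifih1 were not called, with log2 fold changes of -0.07, -0.22 and -0.32. Without the genotype term 2 members fell, and in deficient or control animals alone 33 and 14 fell.

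Immunity-related and guanylate-binding GTPases, which interferon-gamma induces against intracellular microbes, fell as well: of 14 tested, 0 rose, 12 fell and 2 were not called (median log2 fold change -0.77). Irgm1 had 44.4, 40.4, 90.4 and 88.9 CPM in the higher-numbered set, against 110.5, 114, 161 and 147 CPM in the lower-numbered set (log2 fold change -1.09 ± 0.12, adjusted p = 0.000263). Irgm2 had 29.4, 26.6, 48.9 and 52.8 CPM in the higher-numbered set, against 68.9, 65.5, 97.6 and 84.2 CPM in the lower-numbered set (log2 fold change -1.04 ± 0.10, adjusted p = 0.000160), and Gbp3 fell (log2 fold change -0.86 ± 0.10, adjusted p = 0.000351). The Irgm genes did not overlap between the sets, and Gbp3 did. Of 19 genes of MHC class I presentation 0 rose, 11 fell and 8 were not called (median log2 fold change -0.30). CPM of the sets did not overlap for 4 of the 14 GTPase genes and 0 of the 19 class I genes. The immunoproteasome gene Psmb9 (log2 fold change -0.64 ± 0.09, adjusted p = 0.00109), the class I gene H2-T23 (log2 fold change -0.51 ± 0.07, adjusted p = 0.000654) and the peptide loading gene Tapbp (log2 fold change -0.38 ± 0.07, adjusted p = 0.00239) fell. Of 15 class II genes 0 rose, 4 fell and 11 were not called, beside 18.3% of all tested genes that fell. The class II ubiquitin ligase gene March1 (log2 fold change -0.64 ± 0.06, adjusted p = 0.000160), H2-DMa (log2 fold change -0.38 ± 0.08, adjusted p = 0.00441) and H2-Aa (log2 fold change -0.67 ± 0.20, adjusted p = 0.0268) fell. H2-Aa was not called without control 10, deficient 5 or control 2 (log2 fold change -0.81 to -0.48 over the fits without 1 library). The number of class II genes that fell was 2 without deficient 5 or control 2. Without the genotype term 4 GTPase, 0 class I and 1 class II genes fell, and in control animals alone 4, 2 and 2 fell.

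The promoter of Oas3 is shown because it was the first named interferon gene whose window holds the interferon response element GAAANNGAA, here as a pair of overlapping matches from 75 bases before the start, in capitals (RefSeq on GRCm38.p6, chr5:120777610-120777909, minus strand). The windows run from 250 bases before to 50 after the first start that the RefSeq table lists, and 9045 of 12178 tested genes had one.
Oas3 promoter: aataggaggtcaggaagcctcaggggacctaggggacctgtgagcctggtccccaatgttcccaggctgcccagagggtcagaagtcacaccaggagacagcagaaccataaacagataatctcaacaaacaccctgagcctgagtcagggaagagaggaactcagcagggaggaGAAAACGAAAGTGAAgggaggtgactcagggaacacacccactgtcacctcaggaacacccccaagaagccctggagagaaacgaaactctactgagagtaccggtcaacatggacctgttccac

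Motifs were searched on both strands, and matches are letters only. GAAANNGAA was in 176 of 1734 promoters of genes that fell, 6.91% of those that rose and 7.61% of all tested genes, and in 16 of the 24 interferon genes with a window (66.7%). Among genes that fell at least 2-fold the share was 17.5%. ACGTG, the core of the hypoxia response element and part of the E-box CACGTG, was in 33.2% of promoters of genes that rose, 20.4% of those that fell, 26.5% of all and 61.9% of the hypoxia list. For genes that rose at least 2-fold its share was also 26.5%. GGANTTTCC, an NF-kB site, was in 4.37% of genes that rose at least 2-fold and 1.34% of all. TGANTCA, the AP-1 site, which reads the same on both strands, was in 11.4% of genes that rose at least 2-fold, 9.36% of those that fell as much and 5.04% of all, and in 0 of 22 immediate early genes with a window. The windows of the hypoxia genes Hilpda, Ak4 and Vegfa did not hold ACGTG, and those of Socs3, Zc3h12a and Ptgs2 did not hold GGANTTTCC, so the next called members of the hypoxia and NF-kB lists by p whose windows did are shown. These are Ddit4 and Nfkbia. Ddit4 (chr10:59951721-59952020, minus strand), which fell, has ACGTG at 187 bases before the start. Nfkbia (chr12:55492598-55492897, minus strand), which rose, has GGANTTTCC at 178 bases before the start. At 29 bases before the start Nfkbia matches GGANTTTCC on the other strand, so the capitals there read GGAAATTCC.
Ddit4 promoter: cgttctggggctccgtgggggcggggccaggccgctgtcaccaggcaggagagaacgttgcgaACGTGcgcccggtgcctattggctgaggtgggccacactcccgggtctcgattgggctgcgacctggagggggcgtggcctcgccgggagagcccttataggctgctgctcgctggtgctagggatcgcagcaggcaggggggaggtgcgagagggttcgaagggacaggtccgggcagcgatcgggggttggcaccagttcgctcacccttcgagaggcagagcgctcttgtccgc
Nfkbia promoter: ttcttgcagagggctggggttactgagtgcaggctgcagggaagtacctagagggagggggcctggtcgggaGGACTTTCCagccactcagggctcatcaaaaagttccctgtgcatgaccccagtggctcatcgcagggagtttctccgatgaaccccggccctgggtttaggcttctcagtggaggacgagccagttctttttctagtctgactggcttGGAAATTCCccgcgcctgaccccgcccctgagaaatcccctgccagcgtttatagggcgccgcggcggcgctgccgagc

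Genes that mark monocyte subsets changed in both directions. Of 17 genes typical of Ly6Clo patrolling monocytes, 6 rose, 10 fell and 1 was not called (median log2 fold change -0.997). Cx3cr1, the fractalkine receptor, had 123, 203, 384 and 588 CPM in the higher-numbered set, against 594, 524, 1049 and 1065 CPM in the lower-numbered set (log2 fold change -1.45 ± 0.20, adjusted p = 0.000779). Pou2f2, a transcription factor, had 83.1, 107, 129 and 139 CPM in the higher-numbered set, against 210.1, 215, 225 and 254 CPM in the lower-numbered set (log2 fold change -0.997 ± 0.10, adjusted p = 0.000185). Pou2f2 did not overlap between the sets, and for Cx3cr1 control 11 lay above deficient 6. Ace, Adgre4, Spn, Treml4 and Itgal fell with log2 fold changes of -1.43, -1.35, -1.26, -1.20 and -1.10. Members that rose include the lipid genes Cd36 and Fabp4 and the immediate early gene Nr4a1 (log2 fold change 0.998), which other lists hold too. Of 18 Ly6Chi identity genes 4 rose, 8 fell and 6 were not called (median log2 fold change -0.32). Plac8 had 555, 465, 748 and 791 CPM in the higher-numbered set, against 959, 964, 1341 and 1374 CPM in the lower-numbered set (log2 fold change -0.87 ± 0.07, adjusted p = 9.4e-05). Ms4a6c had 219.6, 247, 312 and 318 CPM in the higher-numbered set, against 379, 363, 423 and 404 CPM in the lower-numbered set (log2 fold change -0.53 ± 0.07, adjusted p = 0.000779). Neither gene overlapped. Ms4a4c (log2 fold change -0.68 ± 0.09, adjusted p = 0.000800) and Ly6c2 (log2 fold change -0.38) fell, Ccr2 was not called (log2 fold change -0.24), and the matrix protein genes Fn1 and Thbs1 rose (log2 fold changes 1.05 and 1.08). The number of Ly6Chi genes that rose was 1 without deficient 5 or deficient 6 and 2 without deficient 12 or deficient 13. Of 25 genes of maturation to macrophages 7 rose, 11 fell and 7 were not called (median log2 fold change -0.34). Cd63, a tetraspanin of lysosomes, had 159.7, 122, 105 and 101 CPM in the higher-numbered set, against 64.6, 65.4, 42.3 and 27.6 CPM in the lower-numbered set (log2 fold change 1.33 ± 0.15, adjusted p = 0.000284). Axl, a receptor for uptake of dead cells, had 196, 238, 503 and 637 CPM in the higher-numbered set, against 498, 526, 1042 and 778 CPM in the lower-numbered set (log2 fold change -0.95 ± 0.15, adjusted p = 0.00125), and Tgfbr2 fell (log2 fold change -0.51 ± 0.07, adjusted p = 0.000817). Axl overlapped between the sets, as control 11 lay above deficient 5 and 6 and control 10 above deficient 5, and Cd63 did not. For maturation genes the number that fell was 6 without deficient 12 and 7 without control 10 or control 2. Adgre1 and Cd68, the general macrophage genes, were not called (log2 fold changes -0.05 and 0.09).

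Among receptors and effectors of innate sensing more genes fell than rose. Of 26 sensor genes 1 rose, 13 fell and 12 were not called (median log2 fold change -0.20). Tlr7 and Tlr9, endosomal receptors for RNA and DNA, had log2 fold changes of -1.01 ± 0.12 (adjusted p = 0.000360) and -0.86 ± 0.09 (adjusted p = 0.000234). Tlr7 had 99.2, 128, 151 and 189 CPM in the higher-numbered set, against 283, 237, 298 and 308 CPM in the lower-numbered set. Cd14, the co-receptor for lipopolysaccharide, was the 1 member that rose, with 1130.0, 1581, 665 and 985 CPM in the higher-numbered set, against 431, 398, 342 and 275 CPM in the lower-numbered set (log2 fold change 1.57 ± 0.15, adjusted p = 0.000185). Surface receptors Tlr2 and Tlr4 were not called (log2 fold changes 0.17 and 0.25). Of 11 genes of the phagocyte NADPH oxidase and superoxide handling 0 rose, 6 fell and 5 were not called. Cybb, the catalytic subunit gp91phox, had 584, 685, 1039 and 1273 CPM in the higher-numbered set, against 1574, 1295, 1692 and 1801 CPM in the lower-numbered set (log2 fold change -0.89 ± 0.14, adjusted p = 0.00123). Rac2 (log2 fold change -0.43 ± 0.06, adjusted p = 0.000617) and the catalase gene Cat (log2 fold change -0.44 ± 0.08, adjusted p = 0.00234) fell too. Tlr7, Cd14 and Cybb did not overlap between the sets.

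Adhesion and chemotactic receptor genes differed by member. Over all tested genes 18.6% rose and 18.3% fell, near the shares of adhesion genes that rose and of complement genes that fell. Of 18 integrin and adhesion genes 4 rose, 5 fell and 9 were not called. Itgal, the alpha chain of LFA-1, had 435, 521, 792 and 1047 CPM in the higher-numbered set, against 1321, 1118, 1561 and 1767 CPM in the lower-numbered set (log2 fold change -1.10 ± 0.14, adjusted p = 0.000451). Itga4 (log2 fold change -1.05 ± 0.11, adjusted p = 0.000273) and the P-selectin ligand gene Selplg (log2 fold change -0.78 ± 0.06, adjusted p = 9.4e-05) fell as well, all without overlap. The adhesion genes that rose numbered 2 without deficient 12, deficient 13, deficient 6 or control 2. Of 18 chemotactic receptors 9 rose, 3 fell and 6 were not called. Ccrl2, a non-signalling receptor that binds chemerin, had 560.2, 927, 564 and 1046 CPM in the higher-numbered set, against 127, 221, 158 and 92.7 CPM in the lower-numbered set (log2 fold change 2.39 ± 0.29, adjusted p = 0.000462). Formyl peptide receptors Fpr1 and Fpr2 both fell (log2 fold changes -0.95 and -0.95). Of 17 complement genes 5 rose, 3 fell and 9 were not called. The anaphylatoxin receptor genes C3ar1 (log2 fold change 0.77 ± 0.09, adjusted p = 0.000438) and C5ar1 (log2 fold change 0.36 ± 0.08, adjusted p = 0.00565) rose, as did Cd55 (log2 fold change 1.44 ± 0.35, adjusted p = 0.0107). Complement genes that rose numbered 3 without control 2, and those that fell 0 without deficient 12, 1 without control 10 and 5 without control 3. Of 22 lectin, Fc and scavenger receptors 8 rose, 5 fell and 9 were not called. Olr1, a receptor for oxidised lipoprotein, had 95.7, 115, 36.7 and 41.3 CPM in the higher-numbered set, against 18.7, 18.8, 11.3 and 12.8 CPM in the lower-numbered set (log2 fold change 2.12 ± 0.16, adjusted p = 7.25e-05), with no overlap. Scarb1 fell (log2 fold change -0.64 ± 0.08, adjusted p = 0.000427). Members that fell numbered 3 without deficient 12 or deficient 6.

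Of 19 eicosanoid genes 5 rose, 3 fell and 11 were not called, with Ptgs2 and the prostaglandin receptor Ptger2 (log2 fold change 1.12 ± 0.19, adjusted p = 0.00191) among those that rose and Alox5, 5-lipoxygenase, among those that fell (log2 fold change -1.03). Over all tested genes 18.6% rose and 18.3% fell. Of 15 BCL2 family genes 6 rose, 2 fell and 7 were not called. Bcl2l1, which encodes the survival protein BCL-XL, had 181, 179, 169 and 186 CPM in the higher-numbered set, against 118, 114, 118 and 93.7 CPM in the lower-numbered set (log2 fold change 0.69 ± 0.08, adjusted p = 0.000289). Bid fell (log2 fold change -0.44 ± 0.06, adjusted p = 0.000770). Bcl2a1b rose (log2 fold change 0.94 ± 0.12, adjusted p = 0.000588), but it can share reads with its near copies Bcl2a1a and Bcl2a1d, so its value is uncertain. Of 16 S100 and annexin genes 6 rose, 2 fell and 8 were not called. Without the genotype term 1 of them rose, in control animals alone 3 rose, and the number that fell was 1 without deficient 12, deficient 5 or control 3. Anxa4 had 574, 400.4, 418 and 326 CPM in the higher-numbered set, against 192, 254, 154 and 138 CPM in the lower-numbered set (log2 fold change 1.24 ± 0.14, adjusted p = 0.000318). S100a8 had 129, 135, 19.8 and 14.9 CPM in the higher-numbered set, against 35.1, 69.3, 3.12 and 7.12 CPM in the lower-numbered set (log2 fold change 1.49 ± 0.25, adjusted p = 0.00179). S100a9, its partner, had 36.1, 35.5, 6.46 and 7.47 CPM in the higher-numbered set, against 5.67, 15.02, 0.543 and 1.13 CPM in the lower-numbered set (log2 fold change 2.13 ± 0.33, adjusted p = 0.00124). For both alarmins deficient 6 lay above the higher-numbered controls, so the sets overlapped, and for Anxa4 they did not. Without deficient 6 the log2 fold change of S100a9 was 2.80.

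Some list counts rested on the genotype term. Beside the lists for which this is given above, the number that rose without it was 8 for lysosome, 4 for ribosomal protein, 3 for coagulation, 2 for autophagy, 2 for adhesion, 1 for respiratory chain and 0 for Ly6Chi identity genes. The number that fell without it was 4 for Ly6Chi identity, 3 for maturation, 3 for NRF2, 1 for lectin and Fc receptor and 0 for lysosome and complement genes. Small counts moved too: 0 clock, glycolysis, repair or heme and iron genes fell without it, and 0 heat shock genes rose. In cholesterol synthesis 0 genes rose and 0 fell, and in the cell cycle 1 rose and 1 fell. Of efflux and of BCL2 family genes 1 each fell. Leaving out 1 library also moved small counts. In cholesterol synthesis the number that rose was 0 without deficient 5 or control 3 and 1 without deficient 12, deficient 13, control 10, control 11, deficient 6 or control 2, and the number that fell 0 without deficient 12, deficient 13, control 10, deficient 5 or deficient 6. Coagulation genes that fell numbered 0 without deficient 12, deficient 13 or control 3 and 2 without control 11, immediate early genes that fell 1 without control 10, deficient 5 or control 2, and hypoxia genes that fell 2 without deficient 6. Lipid genes that fell numbered 2 without deficient 6, chemokines that fell 1 without control 11 or control 3, matrix genes that fell 1 without control 11, sensors that rose 2 without control 11 or control 2 and class II genes that rose 1 without deficient 13. In control animals alone 5 sensors fell.

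**Figure D3:**
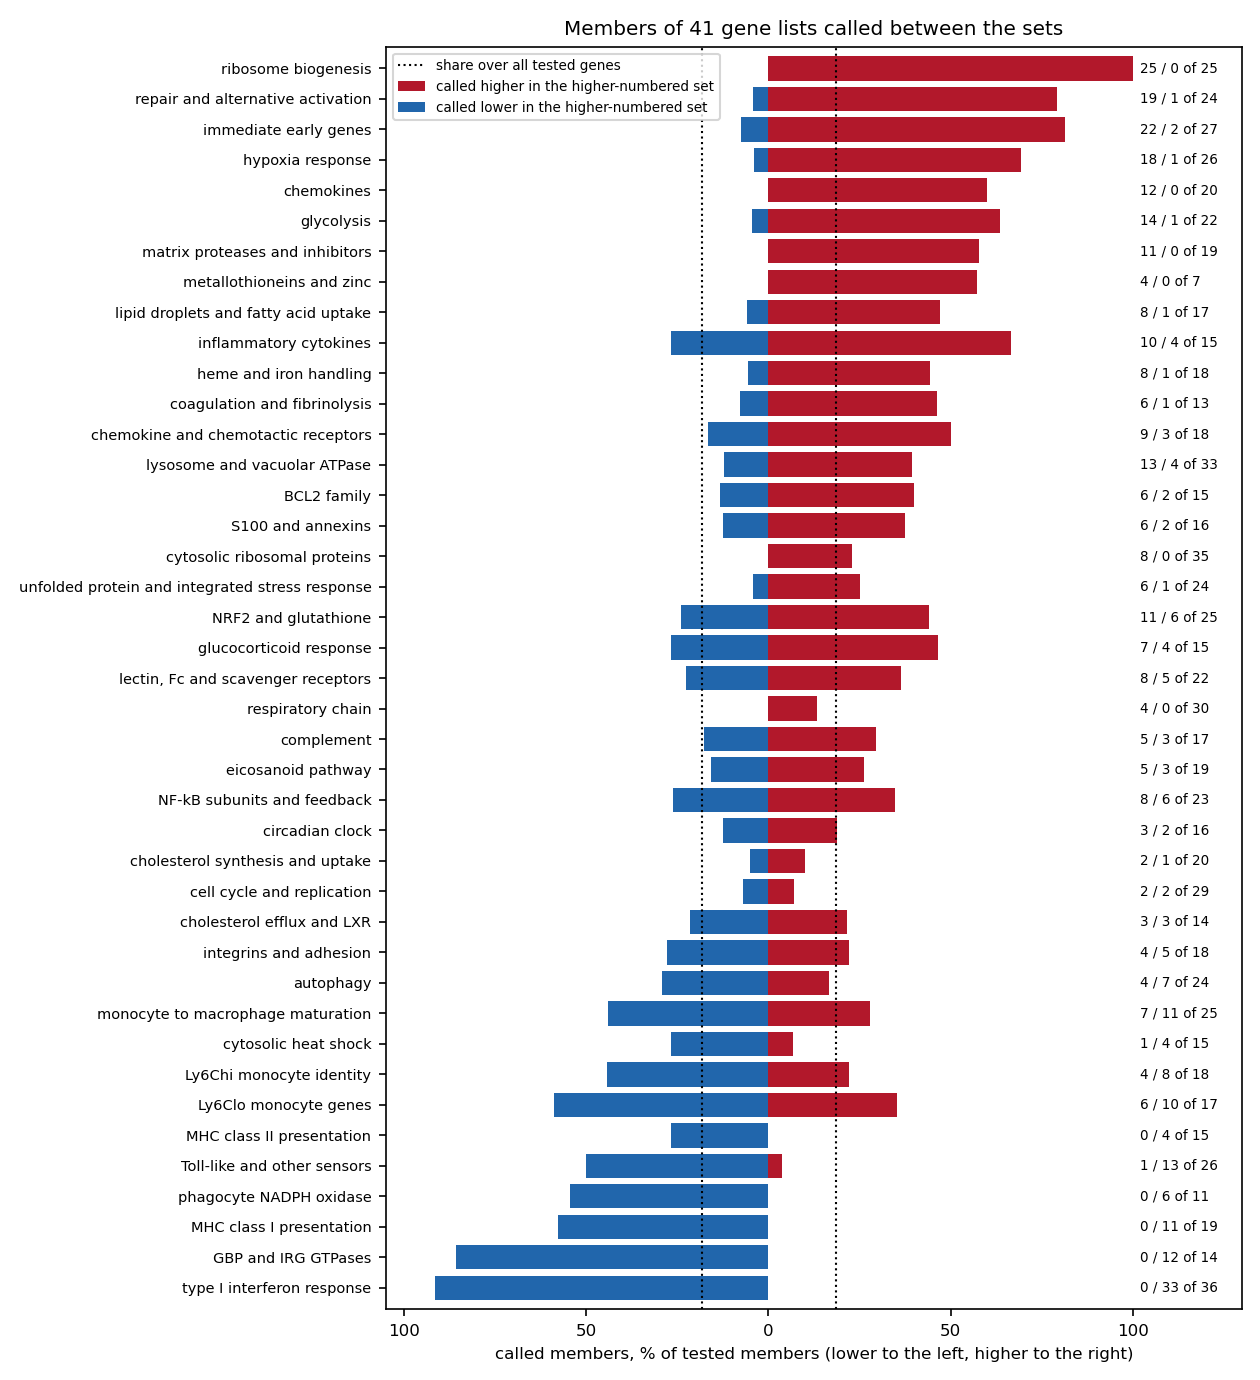
Share of tested members of 41 gene lists called higher (bars to the right) and lower (bars to the left) in the higher-numbered set, in percent of tested members, with the counts at the right as higher / lower of tested. Dotted lines mark the shares over all tested genes (18.6% and 18.3%), which ribosome biogenesis (25 of 25) and the type I interferon response (33 of 36) pass most widely. Lists and sets were chosen with earlier results of these data known.

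Markers of other liver cells were summed per library and compared by exact permutation over the 8 libraries, where the smallest two-sided p is 0.0286. The sets did not overlap for 8 of the 15 sums (exact permutation p = 0.0286 for each). None passed adjustment over the 15 sums (adjusted p = 0.0536 for these, exact permutation). With 8 sums at the smallest p, this design could not give a lower adjusted p, so the adjusted test cannot decide whether these sums differ. The permutation also did not take genotype into account. Endothelial markers summed to 1599.5 ± 367 CPM in the higher-numbered set and 642 ± 166 CPM in the lower-numbered set (SD, n = 4 each), and 11 of their 14 tested members rose. Over all tested genes the share that rose was 18.6%. The endothelial sums by library were 2006, 1615, 1662 and 1115 in the higher-numbered set, against 535, 889, 589 and 555 in the lower-numbered set. Most of each was Fcgr2b, an inhibitory Fc receptor that monocytes also express, with 1657, 1321, 1269 and 763 CPM in the higher-numbered set, against 462, 728, 481 and 444 CPM in the lower-numbered set (log2 fold change 1.23 ± 0.18, adjusted p = 0.00107). Flt1, a VEGF receptor, had 114, 94.0, 214 and 82.0 CPM in the higher-numbered set, against 13.5, 55.8, 30.0 and 33.9 CPM in the lower-numbered set (log2 fold change 1.90 ± 0.41, adjusted p = 0.00603). Stab2 and Clec4g, which define sinusoidal endothelium, had 6.92, 9.92, 5.78 and 26.0 CPM and 1.38, 2.63, 4.06 and 16.9 CPM in the higher-numbered set, against 0.857, 1.22, 2.44 and 2.73 CPM and 0.923, 0.575, 1.90 and 2.33 CPM in the lower-numbered set, with control 11 the highest for both. Cdh5 and Kdr were not called (log2 fold changes 0.49 and 0.59).

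The cholangiocyte sum (1298 ± 763 CPM in the higher-numbered set and 314 ± 89.1 CPM in the lower-numbered set) was almost all Spp1, which macrophages make as well, while Krt7 fell (log2 fold change -0.94 ± 0.26, adjusted p = 0.0190), a call lost without control 10 (log2 fold change -1.11 to -0.74 over the fits without 1 library). Of tested lymphoid markers, 5 of 12 T and NK cell genes rose, and 2 of 10 B cell genes rose and 2 fell. The B cell counts were near the shares over all tested genes, of which 18.6% rose and 18.3% fell. Their sums were small: T and NK cell markers reached 19.9 ± 5.30 CPM in the higher-numbered set and 10.7 ± 2.60 CPM in the lower-numbered set. B and plasma cell markers reached 91.4 ± 20.3 CPM in the higher-numbered set and 168 ± 42.0 CPM in the lower-numbered set, led by Ighm, which fell (log2 fold change -0.88 ± 0.08, adjusted p = 0.000160). Igkc was not called (log2 fold change -1.06 ± 0.52), nor was Klrb1c (log2 fold change 0.71 ± 0.32), and Thy1 rose (log2 fold change 1.14 ± 0.27, adjusted p = 0.00946). All 3 tested erythroid markers, 3 of 3 nuclear retained RNAs and 3 of 6 histones rose. Erythroid markers summed to 6.88 ± 0.8292 CPM in the higher-numbered set and 2.40 ± 0.985 CPM in the lower-numbered set. Both Hbb-bs (log2 fold change 1.40 ± 0.34, adjusted p = 0.0108) and Hba-a1 (log2 fold change 2.10 ± 0.33, adjusted p = 0.00130) rose, although reads of Hba-a1 can be shared with its copy Hba-a2. Mast cell, basophil and eosinophil markers summed to 5.45 ± 0.683 CPM in the higher-numbered set and 2.44 ± 0.785 CPM in the lower-numbered set, where Gata2 rose (log2 fold change 3.05 ± 0.31, adjusted p = 0.000214) and Ccr3 was not called (log2 fold change -0.43 ± 0.38). Nuclear retained RNAs summed to 1419.6 ± 314 CPM in the higher-numbered set and 920.4 ± 137 CPM in the lower-numbered set, and Neat1 (log2 fold change 0.80 ± 0.13, adjusted p = 0.00177) and Malat1 (log2 fold change 0.38 ± 0.07, adjusted p = 0.00305) rose. Replication-dependent histones summed to 232 ± 25.4 CPM in the higher-numbered set and 100.5 ± 34.3 CPM in the lower-numbered set, mostly Hist1h1c (log2 fold change 1.37 ± 0.16, adjusted p = 0.000371), with Hist1h2bc next (log2 fold change 1.48 ± 0.21, adjusted p = 0.000883).

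The 7 other sums overlapped between the sets, and of their tested members 7 of 10 neutrophil, 4 of 19 hepatocyte, 6 of 15 dendritic cell, 2 of 6 platelet and 1 of 4 stellate cell genes rose, while 1 of 11 Kupffer cell, 5 of 15 dendritic cell and 1 of 4 stellate cell genes fell. Over all tested genes 18.6% rose and 18.3% fell, and the share of hepatocyte genes that rose was near that. Neutrophil markers summed to 752 ± 214 CPM in the higher-numbered set and 599 ± 139 CPM in the lower-numbered set. Over the 10 tested neutrophil members, of which 7 rose and 0 fell, the median log2 fold change was 0.86. Csf3r was not called (log2 fold change -0.09 ± 0.11) while Mmp8 rose (log2 fold change 0.43 ± 0.13, adjusted p = 0.0282), a call lost without deficient 13, control 10, deficient 6 or control 2 (log2 fold change 0.32 to 0.53 over the fits without 1 library). Cxcr2 had 9.83, 6.77, 5.18 and 3.95 CPM in the higher-numbered set, against 0.791, 2.59, 0.814 and 0.665 CPM in the lower-numbered set. Retnlg, with at most 19 counts, had 1.315, 0.592, 0.451 and 0.502 CPM, against 0.132, 0.0719, 0 and 0.0665 CPM. Neither Cxcr2 nor Retnlg overlapped between the sets. Hepatocyte markers summed to 309 ± 172 CPM in the higher-numbered set and 201 ± 71.0 CPM in the lower-numbered set, and Alb, serum albumin, had 39.2, 53.4, 149 and 204 CPM in the higher-numbered set, against 61.4, 53.1, 69.5 and 132 CPM in the lower-numbered set. Neither Alb nor Trf (log2 fold change -0.38 ± 0.18) was called. Kupffer cell markers summed to 260.5 ± 126 CPM in the higher-numbered set and 373 ± 122 CPM in the lower-numbered set, where Id3 was not called (log2 fold change -0.25 ± 0.29) and Hpgd, described above, fell. Dendritic cell markers summed to 303 ± 38.1 CPM in the higher-numbered set and 252 ± 48.6 CPM in the lower-numbered set, and Bst2 (log2 fold change -0.37 ± 0.11, adjusted p = 0.0221) and Tcf4 (log2 fold change -0.27 ± 0.09, adjusted p = 0.0385) fell. Bst2 was not called without deficient 12, deficient 13, control 10 or control 2 (log2 fold change -0.44 to -0.27 over the fits without 1 library). Nor was Tcf4 called without deficient 12, control 10, deficient 5, deficient 6, control 2 or control 3 (log2 fold change -0.33 to -0.19 over the fits without 1 library). Stellate cell and fibroblast markers (205 ± 31.1 CPM in the higher-numbered set and 173 ± 19.1 CPM in the lower-numbered set) were led by Ecm1 and Acta2, neither of them called (log2 fold changes 0.26 ± 0.12 and -0.15 ± 0.13). Platelet markers summed to 123 ± 74.3 CPM in the higher-numbered set and 59.8 ± 22.1 CPM in the lower-numbered set, with Pf4 not called (log2 fold change 0.62 ± 0.39). Mitochondrially encoded RNAs summed to 18729 ± 632 CPM in the higher-numbered set and 18778 ± 897 CPM in the lower-numbered set, with mt-Co1 and mt-Cytb not called (log2 fold changes -0.03 ± 0.07 and -0.02 ± 0.07). The part of other cells and of RNA quality in the differences between the sets was not tested.

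**Figure D4:**
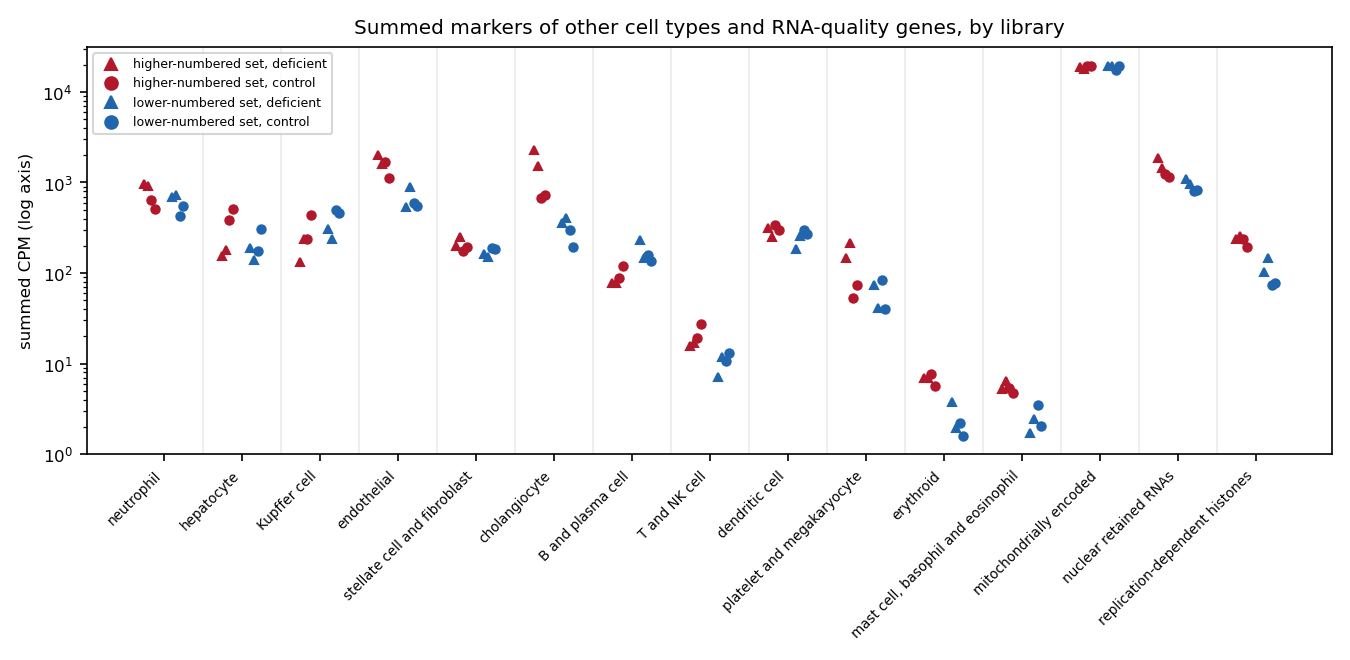
Summed CPM (log axis) of markers of other cell types and of RNA-quality genes in each library, with colour for the set and shape for the genotype. Sums do not overlap between the sets for 8 of 15 lists, among them endothelial markers (mean 1599.5 CPM in the higher-numbered set and 642 CPM in the lower-numbered set), and overlap for mitochondrially encoded RNAs.

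The set difference had the same sign in deficient and in control animals for every called gene, 2263 higher and 2233 lower. Genes were called on the set difference over both genotypes of these same libraries. Such calls favour genes with the same sign in each genotype, so this agreement follows largely from the selection. Tested in each genotype alone, with 2 libraries against 2, 2507 genes were called in deficient animals (1264 higher and 1243 lower) and 1796 in control animals (956 higher and 840 lower). Both genotypes called 1225 of these, which are 48.9% of the calls in deficient and 68.2% of those in control animals, and 1220 of the 1225 had the same sign. Across 12032 genes tested in both, the log2 fold changes of the genotypes had a Pearson r of 0.767, and genes are not independent replicates.

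Whether the set difference itself differed between the genotypes was tested by an interaction term, which called 5 genes (0.0411%), 3 with a positive and 2 with a negative term, while 817 had an unadjusted p under 0.05. Ccl6, a chemokine of myeloid cells, had 2306, 2256, 1149 and 1028 CPM in the higher-numbered set, against 939, 871, 948 and 936 CPM in the lower-numbered set: it was highest in the higher-numbered deficient libraries, and the log2 set difference was 1.33 in deficient and 0.21 in control animals. Cxcl9, an interferon-gamma-induced chemokine, had 4.98, 6.11, 33.0 and 31.8 CPM in the higher-numbered set, against 24.9, 25.2, 33.4 and 28.3 CPM in the lower-numbered set, with log2 differences of -2.17 in deficient and 0.07 in control animals. Nlrc5, the transactivator of MHC class I genes, had 50.1, 53.4, 111 and 108 CPM in the higher-numbered set, against 101, 104, 115 and 112 CPM in the lower-numbered set, with log2 differences of -0.98 in deficient and -0.05 in control animals. For Cxcl9 and Nlrc5 the higher-numbered deficient libraries were the low ones, and the other 6 lay close together. Mid1 and G530011O06Rik, a transcript within Mid1 on the X chromosome, were the other 2, each with opposite signs in the genotypes. These calls rest on few libraries: leaving out control 2 or deficient 12 left 1 call, leaving out any other single library left 0, and DESeq2 called 65.

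**Figure D5:**
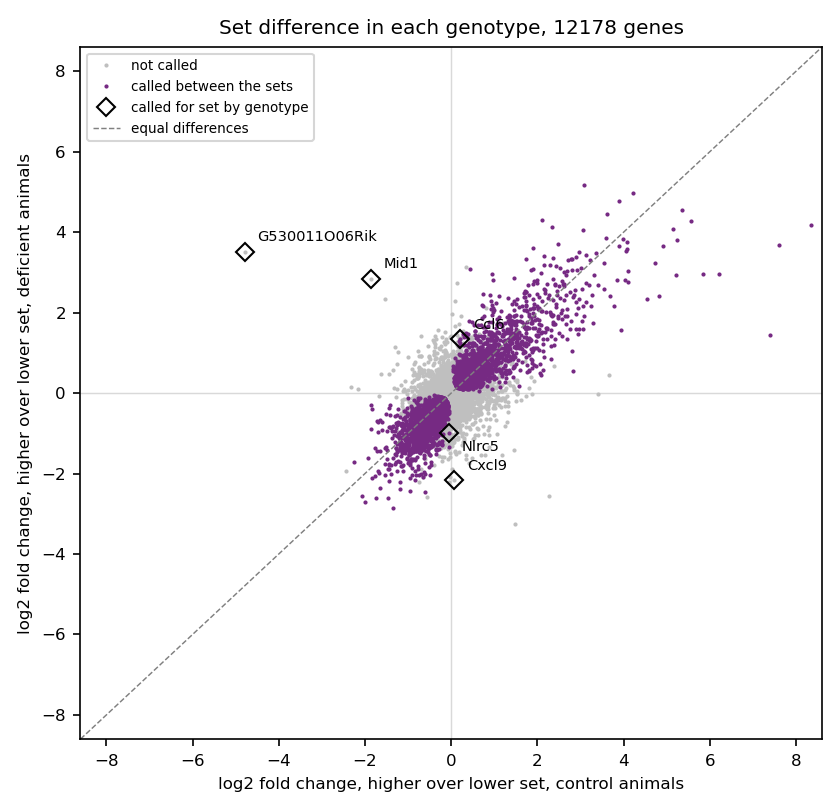
Log2 fold change of the higher-numbered over the lower-numbered set in control animals (x axis) and in deficient animals (y axis) for each of the 12178 tested genes, with called genes in purple and the 5 genes called for the interaction as labelled diamonds. Called genes lie in the lower left and upper right quadrants, and the dashed line marks equal differences.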

How the data were processed

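RNA of sorted hepatic Ly6Chi monocytes was sequenced as single reads on a NextSeq from polyadenylated libraries, per the labels' protocols. The submitters' processing notes list STAR 2.7.3a, HTSeq 0.12.4, cutadapt and DESeq2 1.26.0 beside the build GRCm38, without saying what each was used for. The authors deposited raw counts per gene as whole numbers, and 8 further columns of normalised values per sample were not used. The strand setting of the counting is not given in the sources used here. The table holds 15336 mouse genes and the cre transgene, and none of its rows has fewer than 6 counts in its highest library, so rarer genes are not analysed here. Of the gene IDs, 15324 matched GENCODE M21, which gave names and coordinates on GRCm38.

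Libraries were put into sets by the animal numbers in their sample descriptions. Counts were filtered with filterByExpr on the sets (minimum count 10, minimum total 15), which left 12178 genes. A gene with few counts in 1 set could pass through the other set, which makes its fold change uncertain. Counts were scaled by TMM factors (0.944 to 1.03) and fitted in edgeR 4.0.16 (R 4.3.3) with genotype and set as terms. The quasi-likelihood test of the set term was two-sided with Benjamini-Hochberg adjustment over all tested genes, and genes were called at an adjusted p under 0.05. SE is the size of the log2 fold change divided by the square root of its F statistic. CPM are effective-library-size scaled counts. Alternatives were DESeq2 1.42.0, limma 3.58.1 with voom, RLE and upper-quartile factors, no filter, a filter of 5 CPM in 4 libraries, no genotype term, each genotype alone, and leaving out each library. Summed markers were compared by exact permutation tests, and intervals or floors at 0 counts (3 counts) cover counting error only. At 13327665 to 15759301 counts per library, counting error is a small part of the values of abundant genes and a larger part of those near the filter.

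Named by rule were, in each direction, the 10 largest called genes whose sets did not overlap (mean log2 CPM from 2 upwards) and the 5 with the smallest p. The rule also took up to 3 called members by p of each of 41 pathway lists (2 as values where none was called), the 2 most abundant members of each of 15 lists of other cells or RNA quality, Commd10 and cre, and called interaction genes. Other names were chosen after their values were seen. Some genes that the rule names are not reported here. The 56 lists, 1005 genes of which 947 are in the table, and the sets themselves were chosen with earlier results of these data known. Promoters came from a RefSeq table on GRCm38.p6.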

Additional observations from a re-analysis of the deposited data

Results flagged for a closer look

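In 17 of 362 groups of 4 libraries, 1 library stood so far from the other 3 that its gap, as a share of the group's range, passed Dixon's 95% critical value for 4 samples, and chance flags about 1 group in 20. The total was near that rate. Each group mixes both genotypes, and flags of genes that vary together are not independent. Deficient 6 was that library in 11 groups of the lower-numbered set, in 10 as the highest and in 1 as the lowest. The gap there was 0.913 of the range for Arg1, 0.915 for Atp6v0d2, 0.950 for Ccl24, 0.990 for Slc7a2, 0.986 for Hbegf, 0.875 for Osm, 0.891 for Nfil3, 0.967 for Ptger2 and 0.872 for Fcgr2b. It was 0.846 for the summed endothelial markers, which Fcgr2b dominates, and 0.840 for Ccl6, where deficient 6 was the lowest. Slc7a2 shows the pattern most plainly, with 7.65, 51.1, 7.94 and 7.52 CPM in the lower-numbered set, in the order deficient 5, deficient 6, control 2 and control 3. Without deficient 6 the log2 fold changes of these genes stayed positive, and that of Arg1 was 5.94, against 4.90 with it.

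Control 11 was the library apart in 3 groups of the higher-numbered set, with 0.927 of the range for Lilra5, 0.884 for Utp20 and 0.841 for Thy1. It lay nearer to the lower-numbered set for Lilra5 and Utp20, and above its own set for Thy1. Control 2 stood apart for Mt2 (0.888), control 3 for Bcl2l1 (0.845) and deficient 5 for Hbb-bs (0.881).

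The set difference itself differed between the genotypes for 5 genes by the interaction term of the edgeR fit, given here as the log2 set difference in deficient minus that in control animals. It was 1.12 for Ccl6, -2.24 for Cxcl9 and -0.94 for Nlrc5. It was 4.69 for Mid1 and 8.30 for G530011O06Rik, whose counts were low and reached 0 in control 11, so that its fitted difference depends on the prior count.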

How the results depend on the processing

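No paired analysis was possible because no animal number occurs in both sets. DESeq2, limma voom, RLE and upper-quartile factors and both other filters kept the counts of called genes within 1.5 times those reported, as did leaving out any 1 library (3550 to 4349 called). Without the genotype term 2708 genes were called, 1417 higher and 1291 lower. Control animals alone gave 1796 (956 higher and 840 lower) and deficient animals alone 2507 (1264 higher and 1243 lower), each with 4 libraries only. Of 151 named genes that were called, 102 kept the call in every alternative that was run, 34 lost it without the genotype term, 28 in control animals alone, 20 in deficient animals alone and 16 without some single library. Limma voom and upper-quartile factors lost 1 call each, DESeq2, RLE factors and the other filters 0. The cause was not tested. Genes with a called interaction numbered 65 in DESeq2, 3 in limma voom, 1 with the filter at 5 CPM and 0 to 1 without 1 library.

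Signs turned for genes near 0 or with opposite signs in the genotypes. In control animals alone the log2 fold change was 0.060 for Csf3r, -0.043 for Ecm1, 0.021 for Igkc, -0.13 for Pf4, 0.025 for mt-Co1, 0.042 for mt-Cytb, 0.13 for Commd10, -1.85 for Mid1 and 0.072 for Cxcl9. In deficient animals alone it was -0.31 for Alb and 3.51 for G530011O06Rik. Over the fits without 1 library it ranged from -0.18 to 0.011 for Csf3r, -0.011 to 0.48 for Alb, -0.057 to 0.0037 for mt-Cytb, -0.20 to 0.13 for Commd10 and -0.98 to 0.63 for G530011O06Rik. None of these genes was called between the sets.

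At this depth the lowest of 5 bins by expression had the smallest share of called genes, and depth itself was not varied.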

Other observations

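Mid1, a microtubule-associated ubiquitin ligase gene (chromosome X, 169685199 to 170005736 on GRCm38), and G530011O06Rik, which lies within it (169975043 to 169978917), showed a pattern that crosses sets and genotypes. Mid1 had 3.95, 4.07, 0.526 and 0.431 CPM in the higher-numbered set, against 0.330, 0.790, 1.63 and 1.86 CPM in the lower-numbered set. G530011O06Rik had 2.35, 1.77, 0.150 and 0 CPM in the higher-numbered set, against 0.0659, 0.287, 2.65 and 1.86 CPM in the lower-numbered set. Deficient 12, deficient 13, control 2 and control 3 were the high libraries for both genes. Chosen after these values were seen, a search for genes with all of those 4 libraries above 2 times each of the other 4 and a mean of at least 1 CPM found these 2 genes of 12178 tested, and 0 genes with the opposite pattern. Reads of the overlapping genes may be counted for either, and the cause of the pattern was not tested.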
